A study of Mus musculus with 8 samples.

Results

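Hearts of mice that had sham surgery and no infarction were compared between the genotype labels CKO and fl/fl. These are 4 of the 8 libraries of the series, 2 labelled CKO-Sham and 2 labelled fl/fl-Sham, chosen by their labels alone. Poly(A) RNA of the myocardium was sequenced as paired-end reads. Every mouse was meant to carry floxed Piezo1 alleles on both chromosomes (Piezo1 fl/fl, from the line Piezo1 tm2.1Apat). CKO mice also carried the Myh6-MerCreMer transgene (A1cf Tg(Myh6-cre/Esr1*)1Jmk), in which the cardiomyocyte promoter Myh6 drives a Cre recombinase fused to the hormone-binding part of the estrogen receptor. The fl/fl mice were littermates without it, although the genotype field of their labels reads WT. Tamoxifen was given from 4 weeks of age at 75 mg/kg/day for 5 days, and the methods do not say whether fl/fl mice received it too. Surgery was at 8 weeks of age, and sham mice went through anesthesia, ventilation and thoracotomy without ligation of the left anterior descending artery (LAD). The time between sham surgery and harvest is not given in the labels. The other 4 libraries, CKO-MI and fl/fl-MI, came from hearts at day 42 after myocardial infarction (MI) and are used only as a second comparison of the same genotype labels in other animals.

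Piezo1 is a mechanosensitive cation channel that opens when the membrane is stretched and lets calcium enter the cell. The comparison asks which genes differ between the genotype labels before any infarct. A heart that is cut out for RNA also carries blood in its vessels and responds within minutes to handling. Immediate early genes are switched on within minutes by calcium, cyclic AMP or stress without new protein synthesis, hemoglobin mRNA marks retained red cells, and clock genes follow the hour of the day. A transgene or floxed allele that was made in another strain brings flanking chromosome with its own variants. Variants beside the transgene move with the genotype label, while the floxed allele was meant to be the same in both groups. Lists of such genes are therefore described beside the genes of contraction and metabolism.

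The labels were checked first. Piezo1 (ENSMUSG00000014444, chromosome 8, 122481698 to 122551329 of GRCm38) had 59.2 and 67.5 CPM (counts scaled to the size of each library, by TMM over the 4 sham libraries) in the libraries labelled fl/fl-Sham. In the libraries labelled CKO-Sham it had 63.1 and 72.5 CPM. The groups overlapped, and the log2 fold change was 0.10 (SE 0.11, edgeR adjusted p = 0.708). Gene counts cover every exon and every cell type of the heart, and exon counts were not analysed here. The paper reports a Western blot of the Piezo1 deletion in isolated adult cardiomyocytes, which counts of whole myocardium do not measure. At the level of annotated transcripts, the authors' estimate for ENSMUST00000067252 was 899 and 2081 counts in fl/fl-Sham and 0 in each CKO-Sham library. The estimate for ENSMUST00000156333, which has as many exons and nearly the same length, was 3086 and 2623 against 5264 and 4968 counts. This divides reads between near-identical transcripts and was not tested. Esr1, the gene of the receptor whose hormone-binding part the transgene carries, had 490 and 405 counts in fl/fl-Sham and 405 and 462 in CKO-Sham. After MI it had 820 and 27447 counts in fl/fl-MI and 59836 and 39049 in CKO-MI. Esr1 was thus as low in the libraries labelled CKO-Sham as in those labelled fl/fl-Sham, and it was high in 3 of the 4 MI libraries, including 1 labelled fl/fl-MI. Neither Piezo1 nor Esr1 sets the libraries labelled CKO-Sham apart, so every direction below rests on the deposited labels. Of the Y-linked genes, Eif2s3y had 57.8 and 48.5 CPM in fl/fl-Sham and 63.8 and 55.2 CPM in CKO-Sham, and Xist had 10.5 and 9.77 against 6.69 and 5.97 CPM, so all 4 libraries read as male.

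The deposited counts summed to 73821747 and 74217461 in fl/fl-Sham and to 88117573 and 75157987 in CKO-Sham. Mitochondrially encoded genes took 43.1% to 46.4% of them. The cardiomyocyte markers Myh6, Tnnt2 and their list of 14 genes summed to 41549 and 43534 CPM in fl/fl-Sham and 38931 and 37496 CPM in CKO-Sham. Lung genes summed to at most 1.11 CPM and liver genes to at most 3.26 CPM in any sham library. Of 33249 genes, 13375 had a mean FPKM (fragments scaled to transcript length and library size) of at least 0.5 and were tested.

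Between the sham groups 175 genes, or 1.31% of those tested, were called at an adjusted p under 0.05 (Benjamini-Hochberg) with the quasi-likelihood test of edgeR, and a gene is said to be called below where it passed this test. Of these 65 (0.486% of genes tested) were higher and 110 (0.822%) were lower in the libraries labelled CKO-Sham. The median fold of the higher genes was 1.9 and that of the lower genes 1.61, and 50 genes changed by at least 2-fold. Among all genes tested, 47.7% did not overlap between the groups, as did all 175 called genes. The count rests on the 4 libraries chosen for the fit. With all 8 libraries in the fit, which share the spread of the MI hearts, only Slc15a2 was called. Leaving out the library labelled fl/fl-Sham 1 gave 18 genes and leaving out fl/fl-Sham 2 gave 31, while 409 and 343 were called without CKO-Sham 1 or CKO-Sham 2. In each of those 4 fits 1 group holds a single library, whose spread is taken from the other group. All of the called genes that were tested kept their direction there, and 8 were called in each: Slc15a2, Postn, Rhoj, Cfd, Cyp1a1, Apold1, Plac9a and Gm23935. The kept direction adds nothing, because groups that do not overlap can hardly change direction when 1 library is left out. The p-values measure the spread between 2 libraries a group, and nothing in the labels says how the animals of a group relate.

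**Figure D1:**
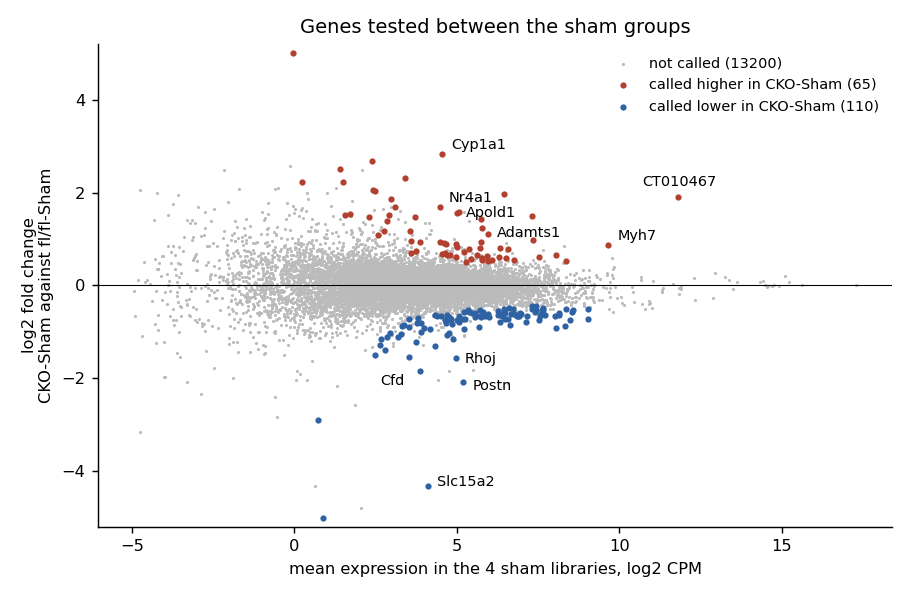
Each point is a gene tested between the sham groups, with its mean expression on the x axis (log2 CPM) and its log2 fold change on the y axis. Red and blue points are the 65 genes called higher and the 110 called lower in the libraries labelled CKO-Sham, and Gm49527 and Yy2, which have no counts in 1 group, are drawn at the edges.

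Slc15a2 (chromosome 16, 36750177 to 36784962), which encodes the proton-coupled peptide transporter PEPT2, was the gene with the smallest p. It had 37.6 and 28.2 CPM in fl/fl-Sham and 1.82 and 1.45 CPM in CKO-Sham. The groups lay far apart, and the log2 fold change was -4.33 (SE 0.20, edgeR adjusted p = 0.000526), or 20.1-fold lower. Its main transcript, ENSMUST00000023616, had 2238 and 1692 against 139 and 99 counts, and the shorter transcripts were low in the same libraries. It was called in every setting run that gave it a value. The other members of its family that could be tested did not pass, with log2 fold changes of -0.20 for Slc15a3 and -0.09 for Slc15a4.

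Other strongly lower genes act in the matrix, in complement and at the cell surface. Postn, the matricellular protein periostin made by activated fibroblasts, had 61.1 and 57.7 CPM in fl/fl-Sham and 12.2 and 15.7 CPM in CKO-Sham (log2 fold change -2.09, SE 0.14, edgeR adjusted p = 0.00179). No other gene of the extracellular matrix list was called lower. Of its 24 tested genes 17 were positive and 7 negative, and Col1a1 and Col3a1, the main fibrillar collagens, had log2 fold changes of 0.40 and 0.40 without passing the test of edgeR, while DESeq2 called both higher. Rhoj, a small GTPase of endothelial cells, had 49.2 and 44.9 against 14.6 and 17.3 CPM. Cfd, complement factor D or adipsin, an abundant product of fat cells, had 21.8 and 23.6 against 6.04 and 6.65 CPM. Cfd was the only one of 10 tested adipocyte genes called, and 7 of the 10 were negative. Adipoq had 14.5 and 14.4 against 13.9 and 12.5 CPM, and the whole list summed to 193 and 190.4 against 140.0 and 166 CPM. The part of fat tissue in the Cfd difference was not tested. C3, the central complement protein, fell from 175 and 176 to 99.6 and 104 CPM. Armc2 had 18.6 and 15.7 against 6.57 and 5.2 CPM, and Ifi205, of the interferon-inducible p200 family, 36.5 and 34.2 against 17.7 and 16.1 CPM. Eef1a2, the muscle form of the elongation factor that brings tRNA to the ribosome, fell from 425 and 401 to 220 and 232 CPM. Gm42047, a long noncoding RNA, had 18.6 and 18.8 against 7.38 and 8.62 CPM. In the called genes named here both CKO-Sham libraries lay below both fl/fl-Sham libraries. No called gene overlapped between the groups, so this adds nothing to the calls.

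H2-Q6 and H2-Q7, nonclassical class I genes of the Qa-2 region on chromosome 17, were lower as a pair. H2-Q6 had 41.2 and 39.7 CPM in fl/fl-Sham and 18.2 and 18.3 CPM in CKO-Sham (log2 fold change -1.15, SE 0.10). H2-Q7 had 36.5 and 35.7 against 17.3 and 18.2 CPM (log2 fold change -1.02, SE 0.11). Their neighbours were not called in sham hearts. H2-Q4 had a log2 fold change of -0.20, H2-D1 of -0.17 and H2-K1 of -0.14, and H2-Q6 and H2-Q7 were the only 2 of 22 tested MHC genes called. None of 39 interferon-stimulated genes was called by edgeR (8 at an unadjusted p under 0.05), DESeq2 called 3 lower, and they had a median log2 fold change of -0.16.

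Among the higher genes Cyp1a1 had the smallest p. It encodes a cytochrome P450 that oxidizes aromatic hydrocarbons and is the classic target of the aryl hydrocarbon receptor. It had 4.91 and 6.60 CPM in fl/fl-Sham and 38.0 and 43.5 CPM in CKO-Sham (log2 fold change 2.82, SE 0.17, edgeR adjusted p = 0.00179), a 7.07-fold rise. Other targets of this receptor, listed after the value of Cyp1a1 was seen, did not pass: Tiparp had 10.7 and 9.52 against 10.9 and 12 CPM, and Cyp1b1 17.9 and 16.2 against 22.2 and 14.2 CPM. Apold1, an early response gene of endothelial cells, rose from 16.2 and 16.2 to 47.8 and 47.4 CPM (log2 fold change 1.55, SE 0.10). Adamts1, a protease that cleaves proteoglycans, rose from 38.8 and 39.5 to 82.8 and 86.1 CPM. Cytl1 had 7.32 and 6.67 against 21.9 and 16.9 CPM, and Zfp568, a zinc finger repressor, 2.77 and 4.01 against 11.5 and 13.1 CPM. Tuba4a, an alpha-tubulin, rose from 113 and 106 to 236 and 196 CPM, and Gpalpp1 from 15.3 and 15.4 to 28.2 and 30.0 CPM. Arg1, arginase 1, went from 0.405 and 0.417 to 1.87 and 2.01 CPM, a large fold at a low level.

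Several genes of the immediate early response were higher in the libraries labelled CKO-Sham. Of 28 listed genes 23 could be tested, 6 were called higher and none lower, and 21 were positive. DESeq2 called 12 higher and none lower. Their median log2 fold change was 0.53, where that of all 13375 genes was 0.01 and 0.486% of genes were called higher. Nr4a1, an orphan nuclear receptor induced by stress and cyclic AMP, had 10.8 and 10.3 CPM in fl/fl-Sham and 30.2 and 37.8 CPM in CKO-Sham (log2 fold change 1.69, SE 0.14, edgeR adjusted p = 0.00426). Dusp1, a phosphatase that switches off MAP kinases, had 60.7 and 55.6 against 101 and 102 CPM. Klf6, a zinc finger factor, had 75.7 and 63.1 against 122 and 118 CPM. Zfp36, which promotes decay of cytokine mRNA, had 29.4 and 26.8 against 44.4 and 48.3 CPM. Egr1, a zinc finger factor of the growth factor response, had 15.6 and 18.3 against 29.2 and 34.5 CPM, and Atf3, a stress-induced bZIP factor, 4.17 and 3.41 against 7.56 and 8.55 CPM. In all 6 genes both CKO-Sham libraries lay above both fl/fl-Sham libraries, as in every gene called higher.

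Most of the members that were not called were positive too. Jun, a subunit of AP-1, had 43.0 and 40.5 against 58.5 and 73.7 CPM, Klf4 68.6 and 68.6 against 90.6 and 103 CPM, and Btg2 33.3 and 29.8 against 44.5 and 46.8 CPM. Klf2, the shear-responsive factor of endothelium, had 60.3 and 68.1 against 143 and 97.3 CPM, and Ier2 20.3 and 18 against 31.6 and 24.1 CPM. Junb had 22.4 and 27.3 against 31.5 and 32.9 CPM, and Fosl2 20.2 and 18.4 against 22.2 and 28 CPM. Among these genes the adjusted p in edgeR was lowest for Jun, at 0.0516. Fos had 7.73 and 6.91 against 6.45 and 12 CPM, so that the groups overlapped, and Fosb had 3.83 and 3.84 against 5.04 and 9.62 CPM. The library CKO-Sham 2 was the higher of its pair in both Fos genes. Nr4a2 had 1.58 and 2.38 against 3.03 and 3.99 CPM, Myc 3.41 and 3.28 against 4.30 and 3.88 CPM, and Ccn1 22.4 and 21.4 against 23.3 and 31.5 CPM. Jund had 52.2 and 59.1 against 73.2 and 58.8 CPM. Values close to each other were found for Ier5 with 28.7 and 26.8 against 29.5 and 29.3 CPM, for Gadd45g with 7.41 and 8.26 against 8.51 and 8.08 CPM, for Ier3 with 14.5 and 16.1 against 16.0 and 14.3 CPM and for Gadd45b with 5.19 and 4.92 against 4.27 and 4.88 CPM. Called genes outside the list that belong to the same kind of response, named after their values were seen, were Csrnp1 (6.58 and 7.83 against 16.7 and 15.7 CPM), Plk3 (3.98 and 4.43 against 9.79 and 9.08 CPM), Sik1 (20.0 and 23.8 against 37.2 and 43.6 CPM) and Ccn2, or CTGF (37.8 and 35.7 against 60.0 and 80.3 CPM). Of the feedback inhibitors of ERK signalling, Dusp6 and Spry4 were called higher, with log2 fold changes of 0.65 and 0.93.

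The promoters of 5 of the 6 called early genes are shown because such responses run through short DNA elements near the start site. Each is the 250 bases before the annotated start, 5′ to 3′ on the strand of the gene, from the RefSeq table on GRCm38.p6. Capitals mark TGACG on either strand (the core of the cyclic AMP response element TGACGTCA), CACGTG (an E-box) and the CArG box bound by serum response factor. Per1 and Cyp1a1, described beside these genes, are included, and in Cyp1a1 capitals also mark GCGTG on either strand, the core bound by the aryl hydrocarbon receptor. The positions are chr15:101266596-101266845 (plus strand) for Nr4a1, chr17:26508473-26508722 (minus) for Dusp1, chr1:191183334-191183583 (minus) for Atf3, chr7:28379229-28379478 (minus) for Zfp36, chr13:5861239-5861488 (plus) for Klf6, chr11:69098699-69098948 (plus) for Per1 and chr9:57697363-57697612 (plus) for Cyp1a1.
Nr4a1: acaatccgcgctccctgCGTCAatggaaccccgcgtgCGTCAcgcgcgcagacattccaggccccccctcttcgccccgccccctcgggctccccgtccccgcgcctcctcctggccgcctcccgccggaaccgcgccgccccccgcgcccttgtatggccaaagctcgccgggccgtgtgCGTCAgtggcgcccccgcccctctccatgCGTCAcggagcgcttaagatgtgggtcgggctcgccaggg
Dusp1: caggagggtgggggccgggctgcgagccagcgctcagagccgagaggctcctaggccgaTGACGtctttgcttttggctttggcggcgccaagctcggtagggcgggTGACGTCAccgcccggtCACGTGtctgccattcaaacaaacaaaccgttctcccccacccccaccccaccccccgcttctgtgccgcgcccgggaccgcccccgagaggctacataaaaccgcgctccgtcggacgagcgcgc
Atf3: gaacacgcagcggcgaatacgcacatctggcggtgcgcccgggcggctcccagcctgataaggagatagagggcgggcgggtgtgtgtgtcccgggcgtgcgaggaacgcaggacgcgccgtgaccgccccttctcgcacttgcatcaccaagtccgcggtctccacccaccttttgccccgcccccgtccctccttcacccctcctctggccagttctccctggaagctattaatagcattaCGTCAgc
Zfp36: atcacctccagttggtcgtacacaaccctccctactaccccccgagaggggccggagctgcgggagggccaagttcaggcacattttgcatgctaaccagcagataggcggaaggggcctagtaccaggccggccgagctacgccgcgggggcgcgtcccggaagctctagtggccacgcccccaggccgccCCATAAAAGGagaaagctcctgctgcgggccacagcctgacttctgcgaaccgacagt
Klf6: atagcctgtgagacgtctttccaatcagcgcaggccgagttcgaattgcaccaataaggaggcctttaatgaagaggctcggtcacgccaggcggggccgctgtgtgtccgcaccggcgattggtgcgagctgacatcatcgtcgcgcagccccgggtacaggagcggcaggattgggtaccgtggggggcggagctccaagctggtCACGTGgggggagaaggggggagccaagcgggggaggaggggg
Per1: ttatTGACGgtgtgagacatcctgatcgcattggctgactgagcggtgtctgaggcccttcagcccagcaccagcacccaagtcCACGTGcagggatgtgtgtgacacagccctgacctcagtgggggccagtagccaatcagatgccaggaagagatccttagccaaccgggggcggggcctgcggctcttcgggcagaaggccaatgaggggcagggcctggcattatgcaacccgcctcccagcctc
Cyp1a1: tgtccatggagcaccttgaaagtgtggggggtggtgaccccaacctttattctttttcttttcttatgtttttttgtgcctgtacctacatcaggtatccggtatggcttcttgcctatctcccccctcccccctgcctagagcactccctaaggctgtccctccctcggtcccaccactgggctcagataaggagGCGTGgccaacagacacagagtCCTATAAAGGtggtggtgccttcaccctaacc

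Among the 32851 promoter windows of the table, 17.8% hold TGACG on either strand, 1.55% the palindrome TGACGTCA, 6.02% CACGTG, 1.47% a CArG box and 28.2% GCGTG on either strand. In Nr4a1, the early gene with the largest change, TGACG begins at -233, -213, -69 and -40 from the start site. Dusp1 holds the full palindrome at -143, which counts as 2 overlapping matches of TGACG, a further TGACG at -191 and a CACGTG at -126. Atf3 holds TGACG at -7 and Per1 at -246, and Per1 also holds CACGTG at -166. Zfp36 holds a CArG box at -58 and Klf6 CACGTG at -43. In Cyp1a1 the window holds GCGTG at -54 and a CArG match at -32 that overlaps its TATA-like stretch. Dbp was searched too and holds none of the first 4 motifs. These are matches of letters and say nothing of binding in these hearts.

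Clock genes were examined next. Of 17 tested clock genes Per1 and Dbp were called higher and none lower, and 11 were positive. Among all genes 0.486% were called higher and 51.0% were positive. DESeq2 called 4 of the 17 higher and 2 lower. Per1, a repressor of the clock that also responds to cyclic AMP and glucocorticoids, had 43.9 and 44.1 CPM in fl/fl-Sham and 62.2 and 69.9 CPM in CKO-Sham (log2 fold change 0.58, SE 0.09, edgeR adjusted p = 0.0355). Dbp, an output factor driven through E-boxes, had 35.8 and 40.5 against 75.4 and 58.5 CPM (log2 fold change 0.81, SE 0.13). Ciart had 2.42 and 2.28 against 4.77 and 6.26 CPM, Nr1d2 116 and 104 against 165 and 139 CPM, Cry2 16.9 and 17.4 against 21.8 and 23 CPM and Tef 122 and 118 against 145 and 143 CPM. Per2 had 30.7 and 36.0 against 38.8 and 40.7 CPM, Per3 32.1 and 30.7 against 38.6 and 34.4 CPM, Bhlhe40 26 and 31.8 against 35.8 and 38.4 CPM, Bhlhe41 8.00 and 8.22 against 8.77 and 9.31 CPM and Nr1d1 72.1 and 69.2 against 77.6 and 79.5 CPM. On the other side lay Arntl, the activator BMAL1, with 9.53 and 11.3 against 7.38 and 6.39 CPM, Nfil3 with 6.92 and 6.73 against 3.09 and 4.0 CPM and Clock with 38.2 and 34.9 against 32.2 and 32.7 CPM. None of these 3 passed the test of edgeR, while DESeq2 called Arntl and Nfil3 lower. Cry1, with 7.11 and 8.35 against 8.30 and 5.90 CPM, and Hlf, with 17.6 and 14 against 15.2 and 16.1 CPM, overlapped between groups. The hour of harvest is not in the labels, and its part in these values was not tested.

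**Figure D2:**
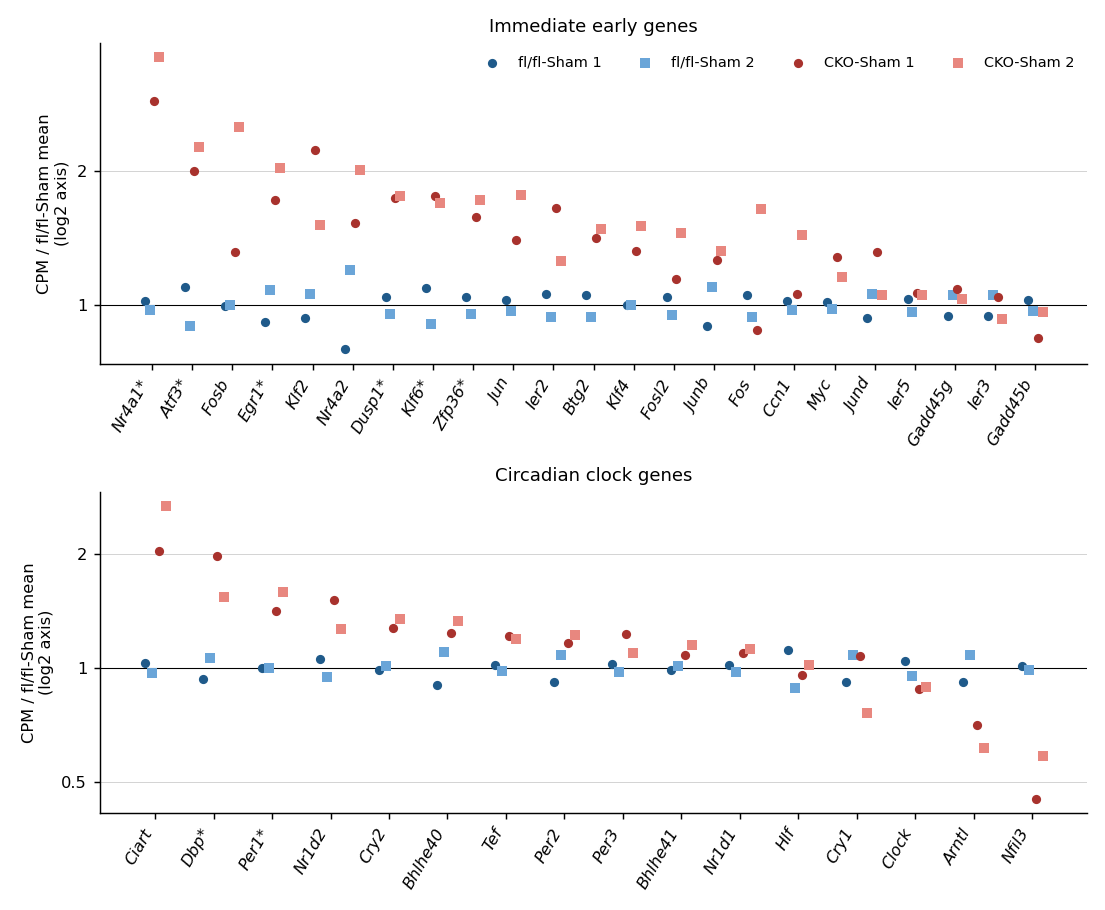
Expression of the tested immediate early genes (top) and 16 of the tested clock genes (bottom) in each sham library, as CPM divided by the mean of the fl/fl-Sham libraries on a log2 axis, ordered by fold change, with called genes starred. In 18 of the 23 immediate early genes both red points lie above both blue points, as in 23.8% of all genes tested. The clock genes run from Ciart and Dbp above the line to Arntl and Nfil3 below it.

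Lists of other stress responses had few calls. None of 19 heat shock genes was called by edgeR (6 at an unadjusted p under 0.05), DESeq2 called Hsp90ab1 and Hspa8 lower, and their median log2 fold change was -0.12. Hspa1a had 4.43 and 4.15 against 6.00 and 6.78 CPM, while Hsp90ab1 had 566 and 537 against 400.3 and 417 CPM. Of 21 glucocorticoid and fasting genes only Per1 was called. Tsc22d3 and Sgk1, induced by glucocorticoids, had log2 fold changes of 0.46 and 0.40, whereas Pdk4 and Fbxo32 had -0.54 and -0.55, and none of the 4 passed in edgeR, while DESeq2 called all 4. Fkbp5, a sensitive glucocorticoid target, had 31.5 and 29.3 against 30.0 and 28.3 CPM. Of 16 tested p53 target genes Ccng1 was called lower, with 396 and 304 against 178 and 193 CPM, and Cdkn1a had a log2 fold change of -0.01.

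Several genes for the use of fuel were lower. The heart oxidizes fatty acids, branched-chain amino acids, ketone bodies and glucose in the citric acid cycle, which feeds the respiratory chain. In the fatty acid list 4 of 26 genes were called lower and none higher, with a median log2 fold change of -0.32 and 23 of 26 genes negative. They were Acsl1, which activates long-chain fatty acids, with 262 and 249 against 151 and 178 CPM, and Mlycd, which removes the inhibitor malonyl-CoA, with 56.9 and 56.7 against 39.2 and 35.1 CPM. Hadh and Echs1, steps of beta-oxidation, had log2 fold changes of -0.51 and -0.50 (SE 0.08 and 0.09). Cpt1b, Cd36 and Fabp3, of transport and uptake, were flat, with log2 fold changes between -0.07 and -0.04. Of all genes tested edgeR called 0.822% lower. DESeq2 called 13 of the 26 genes lower and none higher, and 438 of all 13375 genes lower. Among the 13 were Slc27a1, Slc25a20, Cpt2 and Lpl, which also act in transport and uptake. Etfa and Etfdh, which pass electrons from beta-oxidation to the respiratory chain, were called lower, each with a log2 fold change of -0.45.

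The citric acid cycle, branched-chain amino acid and ribosomal lists below were added after values had been seen, and the first uses the Gene Ontology terms of the authors' table. Of 27 tested genes of the citric acid cycle, 5 were called lower, none was called higher, and 26 were negative, with a median log2 fold change of -0.36. Of all 13375 genes 0.822% were called lower and 6557 were negative. DESeq2 called 17 of the 27 lower and none higher, and 438 of all 13375 genes lower. Cs, citrate synthase, had 443 and 454 against 301 and 322 CPM. Idh3a had 245 and 230 against 171 and 166 CPM, Mdh2 599 and 636 against 445 and 423 CPM and Pdha1, of pyruvate dehydrogenase, 395 and 376 against 264 and 278 CPM. Ogdhl had 94.4 and 92.3 against 65.0 and 54.4 CPM. In every one of these genes both CKO-Sham libraries lay below both fl/fl-Sham libraries, as in every gene called lower. The plot of metabolic genes shows their values. The breakdown of branched-chain amino acids gave 4 lower calls in 15 tested genes, all 15 of which were negative. DESeq2 called 10 of the 15 lower and none higher. Ivd had 144 and 153 against 101 and 95.1 CPM and Hibch, of the valine pathway, 35.4 and 28.8 against 18.9 and 17.9 CPM, and Hibadh and Aldh6a1 had log2 fold changes of -0.55 and -0.50. Oxct1, which lets the heart use ketone bodies, fell from 349 and 343 to 212 and 231 CPM.

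Of 27 tested genes of glycolysis 2 were called lower, among them Eno3, none was called higher, and 6 were positive, with a median log2 fold change of -0.28. Among all genes tested 0.822% were called lower and 51.0% were positive. DESeq2 called 9 of the 27 lower and none higher. Other called genes of glucose use were picked from the lower genes after their values were seen. Slc2a4, the insulin-responsive glucose transporter GLUT4, had 115 and 129 against 79.6 and 79.5 CPM. Pygm, muscle glycogen phosphorylase, had 345 and 343 against 218 and 235 CPM, Pfkfb2 69.1 and 62.7 against 38.2 and 44.0 CPM, and Eno3, muscle enolase, 653 and 669 against 407 and 390.0 CPM. Pdp2, which activates pyruvate dehydrogenase, had 9.69 and 10.7 against 4.92 and 5.12 CPM. In the respiratory chain Ndufa10 of complex I had 237 and 228 against 151 and 151 CPM, Uqcrc2 of complex III 321 and 319.7 against 196 and 211 CPM, and Coq9 of ubiquinone synthesis 149 and 139 against 90.0 and 91.5 CPM. The mitochondrial inner membrane as a whole had a median log2 fold change of -0.06 over 365 genes, with 9 lower calls and 1 higher. DESeq2 called 58 of these genes lower and 5 higher. Of 15 mitochondrially encoded genes none was called by edgeR (none at an unadjusted p under 0.05) or DESeq2, and their median was 0.01. A lower level of nuclear genes of a pathway can come from fewer cells of a type or from less RNA per cell, which cannot be told apart in whole tissue. The 14 cardiomyocyte markers had a median log2 fold change of -0.14, with 11 negative and only Ryr2 called lower by edgeR. DESeq2 called 6 of them lower and none higher, and 8 were lower without overlap, as were 23.9% of all genes. In the fibroblast and endothelial lists 9 of 11 and 8 of 11 genes were positive, with medians of 0.13 and 0.10. DESeq2 called 2 higher and 1 lower in the fibroblast list, and 2 higher and none lower in the endothelial list.

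Channel genes gave calls in both directions. Of 27 tested sarcolemmal channel and pump genes, 4 were called lower and 1 higher by edgeR, and 7 lower and 2 higher by DESeq2. For all genes tested the edgeR shares were 0.822% lower and 0.486% higher. Among those lower, Kcnj3, of the acetylcholine-activated potassium channel, had 35.9 and 37.6 against 21.8 and 19.4 CPM, Kcnip2, the partner of the transient outward channel, 71.4 and 78.1 against 51.0 and 47.0 CPM, and Scn4b, a sodium channel subunit, 9.14 and 8.24 against 4.07 and 3.70 CPM. Kcne1, a subunit of the slow delayed rectifier, rose from 1.97 and 1.34 to 4.54 and 5.13 CPM. In the calcium list 2 of 36 genes were called lower and none higher. Ryr2, the release channel of the sarcoplasmic reticulum, had 436 and 448 against 279 and 319 CPM (log2 fold change -0.56, SE 0.10, edgeR adjusted p = 0.0442), and Rcan2, a calcineurin inhibitor, 160 and 146 against 96.6 and 104 CPM. Hrc and Atp2a2 (SERCA2), which store and pump calcium in the reticulum, had log2 fold changes of -0.51 and -0.49. They did not pass in edgeR, with adjusted p of 0.0504 and 0.0744, while DESeq2 called both lower. In the whole calcium list DESeq2 called 6 genes lower and 1 higher. Camk2d and Slc8a1 had log2 fold changes of 0.01 and -0.05. Of 12 tested mechanosensitive channel genes none was called by edgeR or DESeq2, and none had an unadjusted p under 0.05.

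Of 5 tested genes of wall stress 2 were called higher, Myh7 and Nppb, where 0.486% of all genes were called higher. Myh7, the slow myosin heavy chain, had 562 and 587 CPM in fl/fl-Sham and 878 and 1221 CPM in CKO-Sham (log2 fold change 0.87, SE 0.15, edgeR adjusted p = 0.0458). Nppb, which encodes the natriuretic peptide BNP, had 19.9 and 13.4 against 35.5 and 64.5 CPM. Without CKO-Sham 2 the log2 fold change of Myh7 was 0.61 and that of Nppb 1.09. Ankrd1 had 247 and 196 against 294 and 509 CPM, and Nppa, the atrial peptide ANP, 187 and 109 against 87.6 and 414 CPM. Acta1, skeletal actin, had 375 and 225 against 123 and 465 CPM, and its log2 fold change was -0.03, or -1.28 without CKO-Sham 2 and 0.63 without CKO-Sham 1. The high Nppa value stood in CKO-Sham 2 alone. In that library the atrial genes Myl4, with 11.2, 11 and 8.87 CPM in the others against 39.4 CPM, and Myl7, with 5.23, 4.39 and 2.92 against 17.7 CPM, were also high. Sln had 0.853, 1.03 and 1.02 against 3.80 CPM, while Bmp10 was not high there at 13.0 CPM. The summed level of the 8 atrial genes was 236 and 158 CPM in fl/fl-Sham and 131 and 504 CPM in CKO-Sham. The cartilage and valve genes Fmod (14.7 CPM against at most 2.72), Chad (2.63 against at most 0.489) and Comp (25.1 against at most 8.59) were high in the same library. None of these atrial or valve genes was called by edgeR or DESeq2. Wif1, also of the cartilage and valve list, was not called by edgeR, while DESeq2 called it higher. The share of atrial or valve tissue in the Myh7 and Nppb difference was not tested.

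The other CKO-Sham library stood apart in imprinted growth genes, a list written after their values were seen. H19 had 85.6 CPM in CKO-Sham 1 against 25.4 in CKO-Sham 2 and 19.4 and 17.6 in fl/fl-Sham. Igf2, its neighbour and a fetal growth factor, had 27.1 and 31.5 against 102 and 55.6 CPM and was called (log2 fold change 1.42, SE 0.25). Peg3 with 35.6 and 41.2 against 59.8 and 60.6 CPM and Meg3 with 21.7 and 21.3 against 33.5 and 34.0 CPM were called as well and were alike in both CKO-Sham libraries. Of the other 9 tested genes of the list none was called by edgeR or DESeq2.

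**Figure D3:**
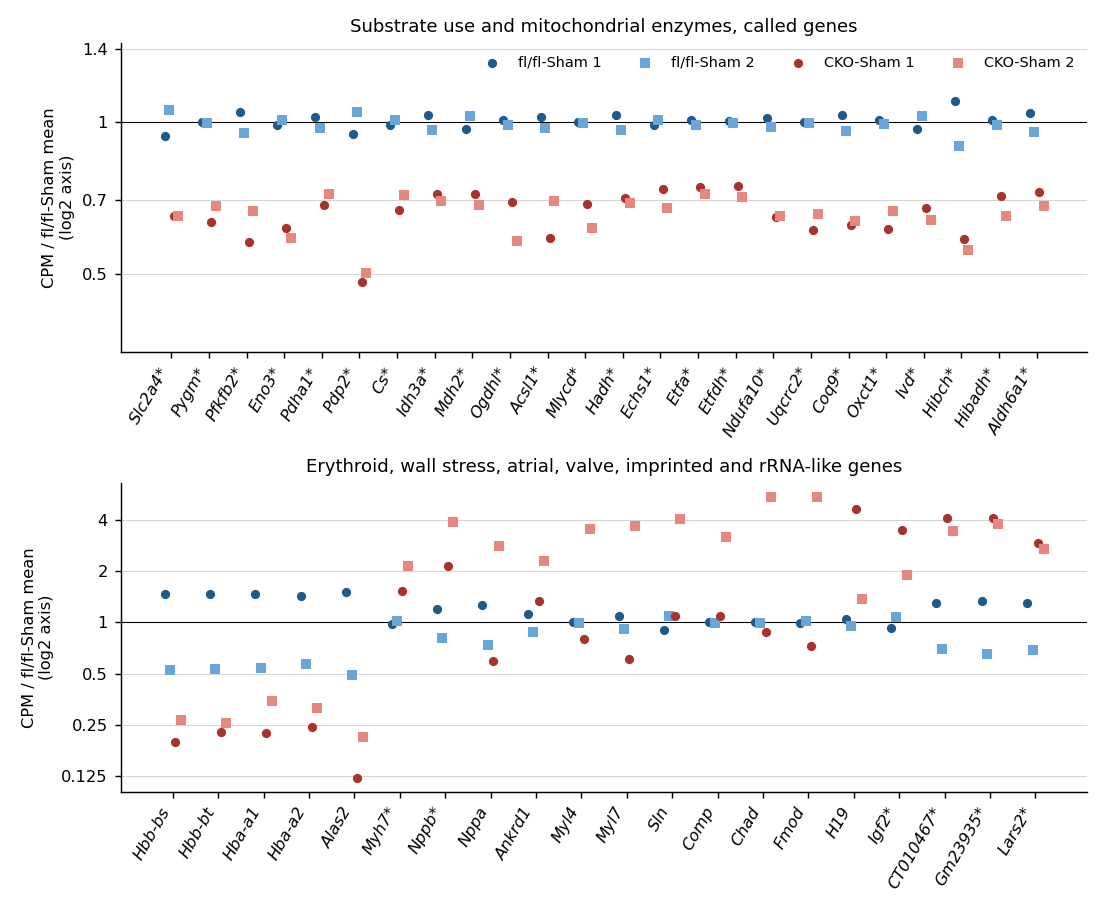
Expression in each sham library as CPM divided by the fl/fl-Sham mean, on log2 axes, for called genes of substrate use and mitochondria (top) and for erythroid, wall stress, atrial, valve, imprinted and rRNA-like genes (bottom), with called genes starred. In the top panel both red points lie below both blue points for every gene, as they do for every gene called lower. In the bottom panel the atrial and valve genes are raised in CKO-Sham 2 only. H19 is highest in CKO-Sham 1, and fl/fl-Sham 1 has the most hemoglobin mRNA.

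Red cell genes had lower values in the libraries labelled CKO-Sham and varied within fl/fl-Sham. Hbb-bs, adult beta-globin, had 229 and 82.1 CPM in fl/fl-Sham and 31.1 and 41.5 CPM in CKO-Sham (log2 fold change -2.10, SE 0.41, edgeR adjusted p = 0.0604). Hbb-bt had 50.4 and 18.4 against 7.81 and 8.86 CPM, Hba-a1 102 and 37.8 against 15.7 and 24.1 CPM and Hba-a2 60.6 and 24.2 against 10.3 and 13.3 CPM. Alas2, the erythroid enzyme of heme synthesis, had 9.35 and 3.06 against 0.762 and 1.32 CPM. Tmod1, which cardiomyocytes express too, had 123 and 109 against 88.5 and 98.8 CPM. All 6 tested genes had lower values without overlap, as did 23.9% of all genes tested. None of the 6 was called by edgeR, although each had an unadjusted p under 0.05. DESeq2 called Alas2 and Hbb-bt lower. The summed hemoglobin level was 442 and 163 CPM in fl/fl-Sham and 64.8 and 87.8 CPM in CKO-Sham, so that fl/fl-Sham 2 lay nearer to the CKO-Sham libraries than to fl/fl-Sham 1. Slc4a1, the anion exchanger of the red cell membrane, was at or near 0 in all 4 libraries. Lists of other blood cells had no called gene. Neutrophil genes summed to 15.7 and 16.4 against 16.1 and 22.5 CPM, platelet genes to 12.4 and 11.7 against 14.7 and 10.4 CPM and lymphocyte genes to 26.2 and 26.6 against 26.7 and 35.9 CPM, with no member called by edgeR or DESeq2. In the macrophage list Ccr2, the receptor of recruited monocytes, was called lower with 8.86 and 11.3 against 3.71 and 3.97 CPM, while Adgre1, Csf1r and Lyz2 had log2 fold changes of 0.02, 0.00 and 0.05. The iron genes Tfrc, the transferrin receptor, and Slc40a1, the iron exporter ferroportin, named after their values were seen, were called in opposite directions, with log2 fold changes of 0.89 and -1.04. Hemoglobin mRNA and the genes called both differed between the groups, and the part of blood content in the calls was not tested.

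Features of ribosomal RNA were higher. CT010467 (chromosome 17, 39846353 to 39848201, biotype rRNA) had 1968 and 1058 CPM in fl/fl-Sham and 6196 and 5172 CPM in CKO-Sham. All entries of this symbol together took 0.111% to 0.631% of all counts. Another entry of it had a log2 fold change of 0.71 and was not called by edgeR, while DESeq2 called it higher. Gm23935, of biotype miRNA, rose from 47.4 and 23.2 to 145 and 133 CPM. Lars2, a mitochondrial tRNA synthetase gene, rose from 110 and 58.3 to 247 and 227 CPM. These 3 symbols were chosen after their values were seen. The level of rRNA left in a poly(A) library varies with preparation, and its part in other differences was not tested. Of 54 tested proteins of the large cytosolic ribosomal subunit 49 were positive, with a median log2 fold change of 0.35, and Rpl3 was called higher. Of 45 of the small subunit 36 were positive, with a median of 0.36, and Rps27rt was called higher. Among all genes tested 51.0% were positive and 0.486% were called higher. DESeq2 called 9 of the large subunit list higher and 1 lower, and 7 of the small subunit list higher and none lower. The summed level of the large subunit list was 4631 and 5209 CPM in fl/fl-Sham and 6716 and 5288 CPM in CKO-Sham, and that of the small subunit list 4119 and 4522 against 5845 and 4553 CPM, so that CKO-Sham 1 was high and CKO-Sham 2 close to fl/fl-Sham 2. By transcript length, the median log2 fold change was 0.05 for genes of up to 1604 bases and -0.01 for those of at least 4347 bases.

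**Figure D4:**
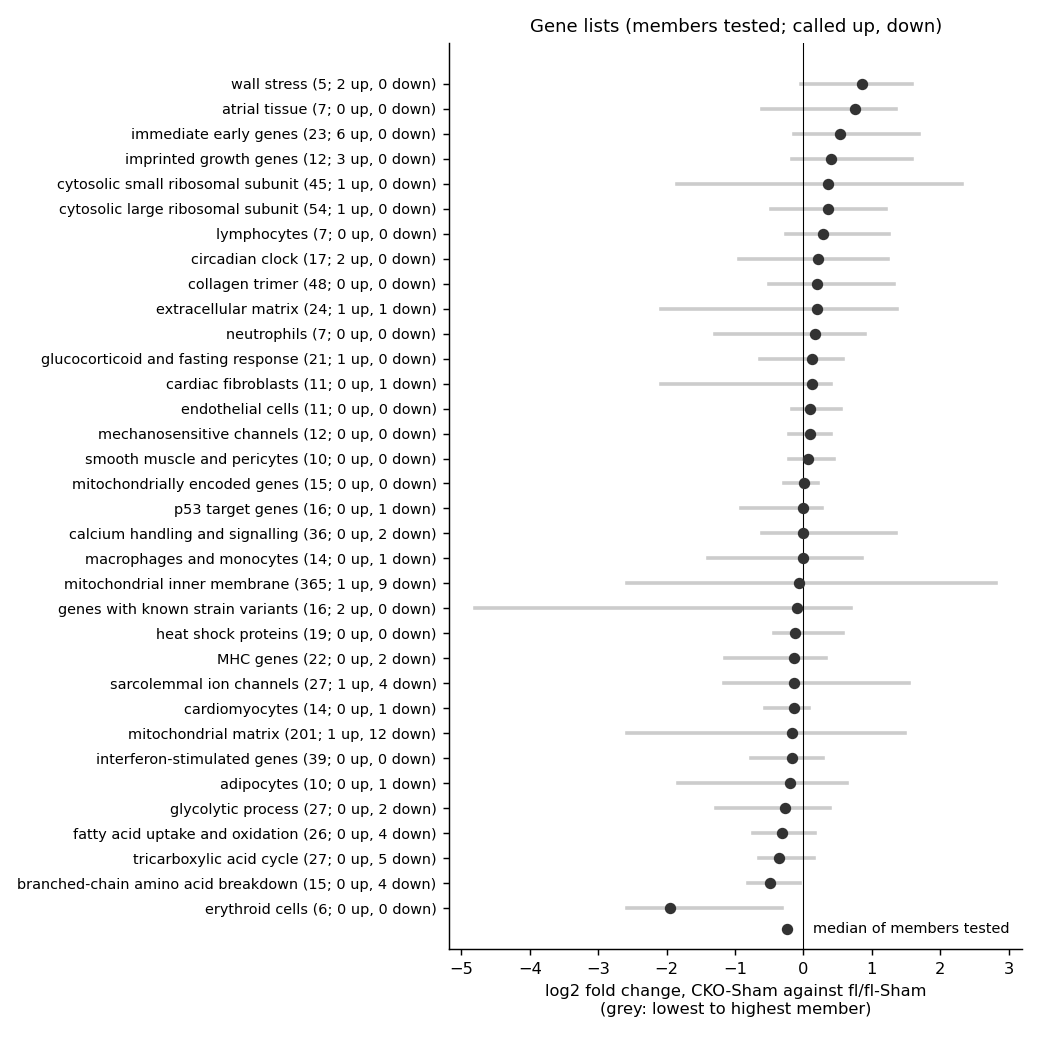
Median log2 fold change (black points) and range (grey lines) of the tested members of each gene list with at least 5 of them, CKO-Sham against fl/fl-Sham, with the numbers tested and called in brackets. Immediate early, ribosomal and wall stress lists lie to the right of 0 and the branched-chain, citric acid cycle and fatty acid lists to the left, and the erythroid list lies farthest left with no member called by edgeR.

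The position of the called genes was examined because a transgene and a floxed allele each carry flanking sequence. Only the transgene was meant to differ between the groups, and the region of Piezo1 was meant to be shared. The transgene is named for A1cf (chromosome 19, 31868764 to 31948573), and 2 of 115 tested genes within 10 Mb of that gene were called, or 1.74%. They were Lipo2 (33719670 to 33749517), a lipase family gene, with 3.35 and 2.51 against 0.471 and 0.311 CPM (log2 fold change -2.89, SE 0.36, edgeR adjusted p = 0.0232), and Kcnv2 (27322588 to 27337179), a modifier of potassium channels, with 17.9 and 23.5 against 11.6 and 10.3 CPM. Within 10 Mb of Piezo1, 2 of 113 genes were called, or 1.77%, namely Gm42047 and Mlycd, which are described above. Both shares are near the 1.31% of all genes. The share called ran from 0.592% on chromosome 5 to 2.34% on chromosome 14 among the autosomes. Around Slc15a2 only Tfrc was called beside it among 107 genes within 10 Mb, and around H2-Q7 6 of 272 were called, H2-Q6 and H2-Q7 among them.

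Genes known to differ between mouse strains were read for the background of the animals. Nnt, which the C57BL/6J strain carries with a deletion, is split over 2 overlapping identifiers. ENSMUSG00000025453 had 3.23 and 97.3 CPM in fl/fl-Sham and 62.1 and 7.16 CPM in CKO-Sham, and ENSMUSG00000116207 had 152 and 46.1 against 54.6 and 109 CPM. Within each group 1 library was high and 1 low, in opposite order for the 2 identifiers, and neither was called. Akr1b7 was at 15.9 CPM in fl/fl-Sham 2 and at most 0.405 CPM elsewhere. Entpd4 and Entpd4b on chromosome 14, each a copy of the other, were called higher, with 18.1 and 17.9 against 29.8 and 27.7 CPM for Entpd4 (log2 fold change 0.68, SE 0.11). No other gene of the 16 tested was called by edgeR, and DESeq2 called Cyfip2 lower as well. The strain of origin of each locus is not in these tables, and the part of linked variants in the calls was not tested.

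Several calls share their sequence with another gene, so that the authors' counting could have moved reads between them. Of 175 called genes 39 had a main transcript at least 98% identical to a transcript of another gene over at least 50% of its length, 16 higher and 23 lower. Plac9a, Plac9b and Gm9780, copies of a small secreted protein gene on chromosome 14, rose together, Plac9a from 1.5 and 1.35 to 9.89 and 8.39 CPM. Among the lower genes 14 are copies at 99.5% to 100% identity to Gapdh, such as Gm2606 and Gm7336, and their log2 fold changes lay between -0.86 and -0.52. Reads of the mRNA of this glycolytic enzyme cannot be told apart from theirs, and the entry Gapdh itself held 48.8 and 42.2 against 35.8 and 39.3 CPM, and without them 96 genes were lower. Yy2 (chromosome X, 157566119 to 157568985) had 276 and 264 counts in fl/fl-Sham and 0 in each CKO-Sham library, at least 24.6-fold lower with a floor of 3 read pairs (12 deposited counts) per library. Its transcript lies wholly within one of Mbtps2, and Mbtps2 had 6.64 and 7.55 against 13.3 and 10.7 CPM, the opposite way. Gm49527 had 0 in fl/fl-Sham and 1.05 and 2.81 CPM in CKO-Sham, at least 11.9-fold higher, and shares 67.6% of its length with Commd5. Rps27rt, with 4.15 and 2.94 against 23.8 and 11.5 CPM, is 100% identical to Rps27 over 91.2% of its length. On chromosome Y the noncoding Gm21860 had 0.475 and 1.11 against 4.67 and 4.31 CPM and has identical copies elsewhere. Without any gene that has such a copy 136 genes remained, 49 higher and 87 lower.

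After MI the same genotype labels gave another picture. No gene (0 of 14377) passed the adjusted threshold between CKO-MI and fl/fl-MI in edgeR, 451 (3.14%) had an unadjusted p under 0.05, and DESeq2 called 55. These 4 libraries are other animals and share none with the sham comparison. Of the 175 genes 170 could be tested there. In 56 of them (32.9%) the direction was that of the sham hearts, where it was the same in 43.5% of all 13028 genes present in both. Without fl/fl-MI 2, the library with high Esr1, 46 of 168 had the same direction, as did 5123 of all 12934 genes. After MI 13 of the 170 had an unadjusted edgeR p under 0.05, as did 346 of all 13028 genes. The direction was that of the sham hearts in 5 of the 13 and in 119 of the 346, and opposite in the others. These 5 genes were lower in both comparisons: Slc15a2, H2-Q6, H2-Q7, Scara5 and Myl1. Slc15a2 had values of 6.04 and 7.64 against 1.66 and 2.42 CPM (scaled over all 8 libraries, fl/fl-MI against CKO-MI), a log2 fold change of -1.73 (SE 0.37), or -1.56 without fl/fl-MI 2. H2-Q6 had 65.8 and 52.2 against 26 and 23.8 CPM (log2 fold change -1.23, SE 0.21) and H2-Q7 64.1 and 36.8 against 19.4 and 27.5 CPM (log2 fold change -1.10). For these 3 genes the libraries did not overlap in either comparison. After MI the neighbouring class I genes had log2 fold changes of -1.21 for H2-Q4, -0.99 for H2-D1 and -1.28 for H2-K1, none of which passed adjustment, nor did their differences from sham hearts. Scara5, a ferritin receptor, had a log2 fold change of -0.85, and Myl1 of -2.52, which became -0.44 without fl/fl-MI 2.

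The median of the early genes had opposite signs in the comparisons. Their median log2 fold change was 0.53 in sham hearts and -1.27 after MI, or -0.71 without fl/fl-MI 2, and 10 of the 23 did not overlap between groups in either comparison while changing direction, as did 9.90% of all genes tested. After MI Nr4a1 had values of 156 and 585 against 114 and 18.2 CPM, and Egr1 188 and 498 against 135 and 20.3 CPM. The interaction, which tests the difference between the sham and MI fold changes, gave an unadjusted edgeR p of 0.0118 for Nr4a1, 0.0314 for Dusp1 and 0.0318 for Egr1, and an adjusted p of 0.574 for each. No gene (0 of 14028) passed the adjusted threshold for the interaction in edgeR, 1191 had an unadjusted p under 0.05, and DESeq2 called 130. Acsl1 had log2 fold changes of -0.64 in sham and 0.48 after MI, and Cs of -0.53 and 0.16, with no test of the difference passing adjustment. Postn had -2.09 in sham hearts and 0.39 after MI, which became -0.43 without fl/fl-MI 2. Myh7 was higher in both, at 0.87 and 0.89, the latter with an SE of 0.96 and 0.09 without fl/fl-MI 2.

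**Figure D5:**
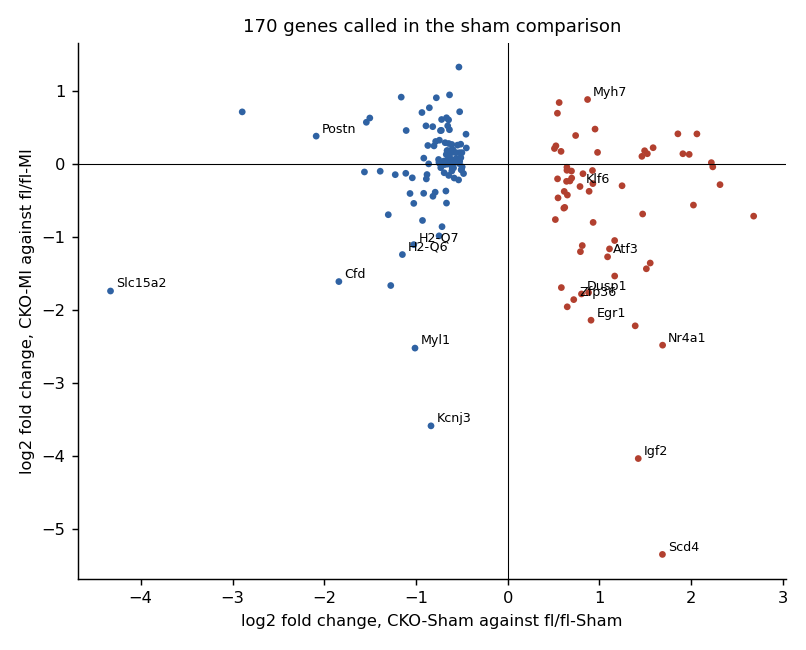
Log2 fold changes of the 170 genes called in the sham comparison (x axis) against their log2 fold changes between CKO-MI and fl/fl-MI (y axis), red for higher and blue for lower in sham. Slc15a2, H2-Q6 and H2-Q7 lie in the lower left, and the called early genes lie in the lower right, higher in sham and lower after MI.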

How the data were processed

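Myocardium of 4 sham hearts, 2 libraries a group, was compared by the deposited labels, and the members and gene lists were chosen with earlier results of these data known. The authors deposited whole-number counts per gene and transcript, without normalization and with about 4 units per read pair, and FPKM values scaled to length and library size. Reads were trimmed with cutadapt 1.9 per the submitters' processing notes, and the aligner and counter are not given in the sources used here. Of the gene identifiers 99.7% were found in GENCODE M21 and 90.8% had the same coordinates on GRCm38.

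The 13375 genes whose FPKM averaged 0.5 or more over the 4 libraries were tested on counts with edgeR 4.0.16 (quasi-likelihood, TMM) in R 4.3.3, with Benjamini-Hochberg adjustment. The standard error of a log2 fold change is its size over the square root of F. The 4 MI libraries and the interaction were fitted likewise. DESeq2 1.42.0 and limma 3.58.1 were alternatives. Tested on simulated data of this comparison over 13375 genes, edgeR recovered 15 of 67 genes changed 1.5-fold, 52 of 67 changed 2-fold and 66 of 66 changed 4-fold, with 27 false calls. Replicate numbers did not pair the samples (r = -0.001 over 13375 genes).

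Genes were named by rule: target and transgene genes, in each direction the 12 smallest p and the 5 largest folds at a mean of 5 CPM, called members of the lists, and called genes within 10 Mb of A1cf or Piezo1. Others are said to be chosen later, and some genes are not reported here. Copies were sought with blastn against GENCODE M21 transcripts. A per-gene count of 0 was bounded at 3 read pairs, which covers counting error only.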

Additional observations from a re-analysis of the deposited data

Results flagged for a closer look

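In 33 of the 175 genes called in sham hearts (18.9%), and in 9.90% of all 13375 genes, the groups did not overlap in either comparison and the direction after MI was opposite to that in sham hearts. In 11 of the 175 (6.29%) the groups did not overlap and the direction was the same, as in 4.34% of all genes. The difference, MI minus sham, was tested as the interaction in edgeR, where 32 of the 33 had an unadjusted p under 0.05 and none an adjusted p under 0.05 (lowest 0.560). For genes higher in sham hearts this difference of log2 fold changes was -3.47 for Cyp1a1, -2.91 for Apold1, -4.17 for Nr4a1, -2.58 for Dusp1, -2.15 for Cytl1, -1.21 for Rbm3, -2.21 for Plk3 and -1.73 for Ccn2. It was also -3.05 for Egr1, -1.07 for Meg3, -1.01 for Ephx1, -0.99 for Rpl3, -1.28 for Actg1, -1.93 for Dbp, -1.54 for Igfbp3, -2.94 for Rps19-ps6 and -3.61 for Enpp6. For genes lower in sham hearts it was 2.12 for Armc2, 1.10 for Vps37a, 1.18 for Plin3, 1.33 for Mid1ip1, 1.19 for Slc25a34, 1.64 for Ppp1r3a and 0.98 for Pfkfb2. The remaining lower genes gave 1.86 for Tacc2, 1.30 for Mypn, 1.59 for Lrrc2, 1.11 for Acsl1, 1.33 for Fam160a1, 1.19 for Lrrc20, 1.24 for Gpam and 1.63 for Lsmem2. All of these differences include the library labelled fl/fl-MI 2, which had high Esr1, and the interaction was not fitted without it. Without that library the median log2 fold change of the early genes after MI was -0.71, against -1.27 with it. Yy2, with no counts in CKO-Sham, had at most 8 counts in a CKO-MI library, and its difference was not tested.

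Esr1 stood above every sham library in 3 MI libraries, with 334 CPM in that labelled fl/fl-MI 2, 711 CPM in CKO-MI 1 and 406 CPM in CKO-MI 2, scaled over all 8 libraries.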

How the results depend on the processing

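The number of genes called between the sham groups depended on the test. DESeq2 called 738 genes (300 higher, 438 lower), among them all 175 called by edgeR. limma on log2(FPKM + 1) called 9 (5 higher, 4 lower) and on log2(FPKM + 0.1) 10 (6 and 4). The fit of all 8 libraries called 1 gene (0 higher, 1 lower). With a 2-fold limit 50 of the called genes remained (29 higher, 21 lower), and at an unadjusted p under 0.05 with that limit 117 were higher and 90 lower, which turns the balance of 65 higher and 110 lower. Leaving out each replicate in turn gave 18 to 409 genes, 12 to 162 higher and 6 to 247 lower. The replicate numbers do not pair the samples, and the replicate block gave 48 genes (26 higher, 22 lower), 45 of them among the 175. RLE scaling, counts divided by 4, leaving out mitochondrially encoded genes, no filter and a mean FPKM of at least 5 kept the count within 1.5 times. No called gene changed direction under any alternative, which groups without overlap all but fix in advance. After MI, DESeq2 called 55 genes and edgeR 358 without fl/fl-MI 1, where the spread of the CKO-MI pair stands for that of the remaining fl/fl-MI library, and 0 without each of the other 3 or with the replicate block. For the interaction DESeq2 called 130 genes and the replicate block 0. The alternatives for MI and for the interaction were chosen after seeing the data. The cause was not tested. With 2 libraries a group an exact two-sided permutation test of 1 gene cannot give a p below 0.33. In simulated data edgeR mostly missed changes of 1.5-fold. It made 27 false calls beside the 15, 52 and 66 changed genes it recovered at 1.5-fold, 2-fold and 4-fold. That is a larger share of false calls than the adjusted threshold of 0.05 aims at, so the 175 called genes can hold false ones.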
